A study of Homo sapiens with 46 samples.

Results

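The late and the early response of 1 engineered cell line to auxin were compared: 4 libraries taken after 96 h of auxin against 4 taken after 16 h, chosen by their labels, 8 of 46 libraries in all. The cells were DLD-1, an adherent line from a human colorectal adenocarcinoma, in which endogenous lamin B1 carries an auxin-inducible degron at its N-terminus (LB1-AID, here the Lamin B1 line). The study also holds the untagged parental line and lines with the same tag on lamin A/C (the Lamin A/C line) or lamin B2 (the Lamin B2 line), each at 0, 16 and 96 h. Untagged cells were included to list the genes that respond to auxin itself. Total RNA depleted of ribosomal RNA was sequenced with a strand-specific kit.

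Auxin was dissolved in DMSO and used at 1 mM. All 8 libraries of the Lamin B1 line therefore had both the tag and auxin, and by the labels only the time differed. The labels give no plate, harvest day or library batch for them. Whether the cells at 0 h received DMSO, and whether each degron line is 1 clone, is not given in the sources used here. Each replicate was 1 well of a plate, so p-values measure the spread between wells and not between separate derivations of the line. The labels give 4 replicates per condition, and the files used here hold 3 for the Lamin B1 line at 0 h and 3 for the Lamin B2 line at 96 h.

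Lamin B1 is an intermediate filament protein of the nuclear lamina, the meshwork that lines the inner nuclear membrane, holds heterochromatin at the nuclear edge and is tied to the cytoskeleton through the LINC complex of SUN proteins and nesprins. An auxin-inducible degron is a short plant-derived tag. Once auxin is added, the tagged protein is marked by a ubiquitin ligase and destroyed by the proteasome, while the RNA that encodes it is not a direct target. The RNA libraries therefore do not measure how much lamin B1 protein was left at 16 h or at 96 h.

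The 4 libraries at 16 h held 6596904, 10822130, 11249439 and 28232502 counts and the 4 at 96 h held 11874987, 11061687, 18026966 and 9621606, against a median of 11533218 over all 46. Counts from the mitochondrial genome took 0.539 to 1.02% of a library at 16 h, 2.1 to 3.18% at 96 h and 1.51 to 1.6% at 0 h in the Lamin B1 line. In the parental line the share was 0.502 to 0.952% at 16 h and 0.751 to 2.53% at 96 h. Genes that are neither mitochondrial nor protein-coding took 2.31 to 3.67% at 16 h and 4.02 to 5.57% at 96 h, against 2.51 to 2.85% and 3.06 to 3.64% in the parental line. Both shares thus separated the early from the late libraries of the Lamin B1 line without overlap. A fit without mitochondrial genes gave 4468 calls between the times, 4200 of them shared in direction with the 4379 of the full fit given next. A fit of protein-coding genes of at least 10 CPM alone, which holds neither class of reads, is given with the gene levels. Both fits were chosen after seeing the data. Epithelial markers were present throughout: 14 of 15 passed the filter on low counts, CDX1 being the exception, and their summed level was 9061 to 13353 CPM (counts scaled to library size) at 16 h and 6040 to 8441 CPM at 96 h. By the test given next, 4 of the 14 were lower at 96 h, KRT8, CDH1, KRT18 and EPCAM. Another 3 were higher, KRT20, ELF3 and CEACAM5, and by that test the change of none of the 14 differed from the parental line's. For that difference 6 of the 14 had an unadjusted p under 0.05 (edgeR), DESeq2 called 1 and voom 2. Markers of other cell types were near the floor, with sums of 1.65 to 3.00 CPM at 16 h and 1.4 to 2.81 CPM at 96 h for 10 fibroblast genes and 2.42 to 4.39 CPM and 3.04 to 4.28 CPM for 10 leukocyte genes. The sum over 8 endothelial genes was 8.91 to 13.7 CPM at 16 h and 8.58 to 12.7 CPM at 96 h. None of the 9 tested markers of these 3 cell types was called by edgeR at an adjusted p under 0.05 or by DESeq2, 1 had an unadjusted p under 0.05 and voom called 1.

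**Figure D1:**
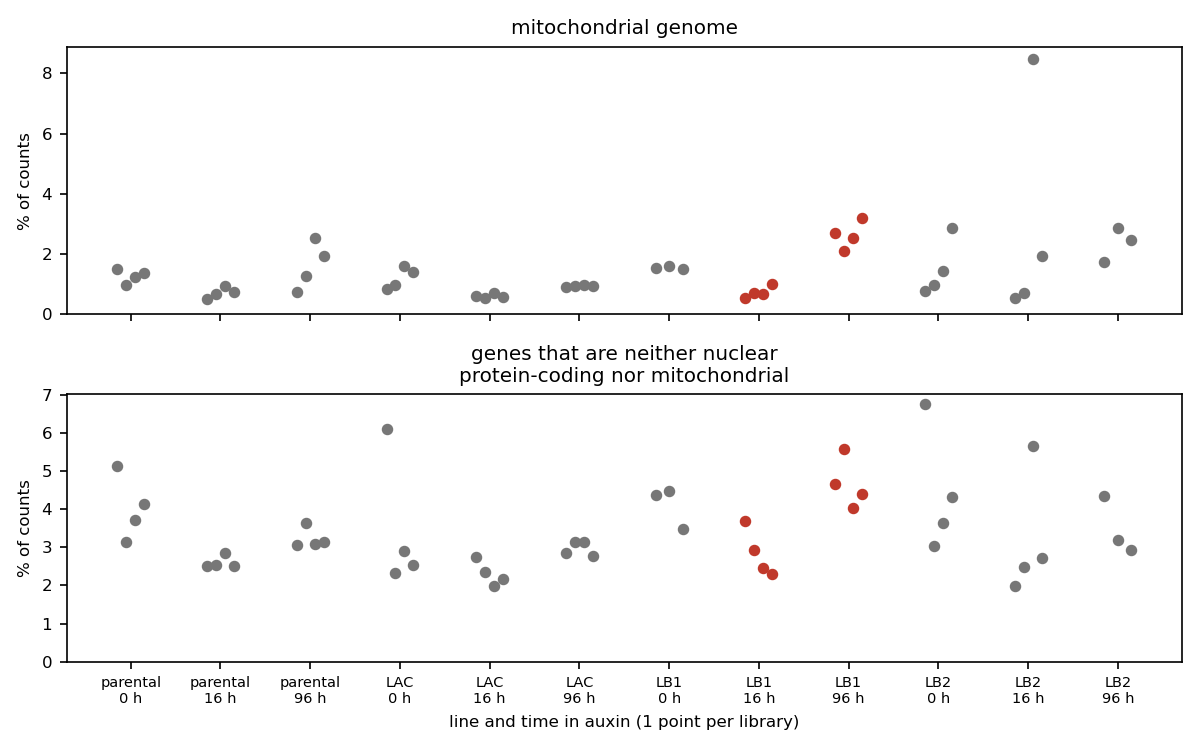
Share of each library's counts, in percent, from the mitochondrial genome and from genes that are neither mitochondrial nor protein-coding, with 1 point per library and the Lamin B1 line at 16 h and 96 h in red. The red points at 96 h, at 2.1 to 3.18% mitochondrial, all lie above those at 16 h, at 0.539 to 1.02%.

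Of 21484 genes tested, 4379 differed between 96 h and 16 h in the Lamin B1 line at an adjusted p under 0.05 (edgeR's quasi-likelihood test with Benjamini-Hochberg adjustment), which is 20.4%. Of these, 2047 (9.53%) were higher and 2332 (10.9%) lower at 96 h. Counts of the 4 late and 4 early libraries did not overlap for 5533 genes (25.8%), 2802 higher (13%) and 2731 lower (12.7%). The parental line, treated for the same times, gave 57 calls (0.265%), 34 higher (0.158%) and 23 lower (0.107%). The change in the Lamin B1 line differed from the change in the parental line for 246 genes (1.15%), 99 upward (0.461%) and 147 downward (0.684%), of which 234 were also called in the Lamin B1 line in the same direction and 12 were not. For the rest of the 4379 calls the difference from the change that untagged cells showed over the same interval did not pass. For comparison, the Lamin A/C line gave 1133 calls (5.27%) and the Lamin B2 line 537 (2.5%) between the same times. The change of the Lamin B1 line differed from the Lamin A/C line's for 36 genes (0.168%) and from the Lamin B2 line's for 31 (0.144%).

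These counts rest in part on single libraries and on the scaling. Without replicate 2 at 96 h the calls fell from 4379 to 2417, and the differences from the parental line from 246 to 51. Leaving out Lamin B1 replicate 4 at 16 h gave 404 differences, and leaving out a parental library gave as few as 114 (parental 96 h replicate 2). Of the genes chosen by the naming rule given under the processing 53 are among the 246, 13 upward and 40 downward. List members outside that rule that are named below as differing from the parental line, such as AMOTL2, HSPA5 and RELB, are not among the 53. Only CAVIN1, CCN1, FLNA, KRT80, NDRG1, NEAT1, SLC7A5, TFF3 and THBS1 passed in every one of the 26 or 27 alternatives that tested them, and 15 of the 53 passed without Lamin B1 96 h replicate 2. Without parental 16 h replicate 4, parental 96 h replicate 2, parental 16 h replicate 3 or Lamin B1 16 h replicate 1 the number was 23, 26, 30 and 30. The calls lost most often were those of LIF (18 of 27), PLK1 (17), CHAC1 and HSPH1 (16 each), CALR (15), PDF (15 of 26) and HSP90B1 (14). All 53 kept their direction wherever they were tested. Higher calls were 46.7% of the 4379 with the TMM scaling used here, 65.0% with relative log expression factors and 76.7% with library size alone, where the median log2 change of all tested genes was 0.08, 0.19 and 0.27. That median of 0.08 is over all genes tested. Protein-coding genes had medians of 0.64 under 1 CPM and 0.30 at 1 to 10 CPM. At 10 to 100 CPM their median was -0.13 and at 100 CPM or more -0.30. Changes below can be read against the median of their own level.

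The direction of the calls followed the level of the gene. Of 2567 genes at 100 CPM or more on average, 38.2% were lower and 2.65% higher at 96 h, with a median log2 change of -0.30. Between 10 and 100 CPM 16.7% were lower and 7.10% higher, and between 1 and 10 CPM 2.38% were lower and 18.0% higher. Among the 5980 genes under 1 CPM 0.318% were lower and 7.16% higher, with a median of 0.67. This balance depended on the scaling. Of 9394 protein-coding genes of at least 10 CPM 475 were called higher and 2155 lower, and when these genes alone were scaled and fitted 1165 were higher and 1069 lower, 1544 of them shared with the full fit in direction. For protein-coding genes at 100 CPM or more the share lower was 38.6% in the full fit, 22.2% in this one, 27.7% with relative log expression factors and 20.0% with library size alone. The shares higher were 2.09, 6.19, 4.02 and 5.72%, and the medians were -0.30, -0.13, -0.20 and -0.12. In other fits the share lower was 41.1% with GC and length trends taken out and 41.6% without mitochondrial genes. It was 58.9% with voom, 60.6% without libraries under 5000000 counts and 23.5% without Lamin B1 96 h replicate 2. In the parental line the medians of the 4 level classes of all genes, from the highest level down, were -0.06, -0.02, 0.07 and 0.13, nearer 0. The Lamin A/C line had -0.17, -0.07, 0.17 and 0.32 and the Lamin B2 line -0.17, -0.09, 0.19 and 0.40. The order of the classes was thus the same in all lines. Gene type moved with level: of 7731 genes that are not protein-coding 911 were higher and 70 lower, against 1136 and 2262 of 13753 protein-coding genes. Because 38.6% of protein-coding genes at 100 CPM or more were lower in the full fit, a count of lower members in an abundant pathway has to be read against that share and not against 10.9%. Among protein-coding genes of at least 10 CPM, the share lower at 96 h was 12.1, 20.3, 29.4 and 29.9% in 4 equal groups from the lowest to the highest GC content.

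**Figure D2:**
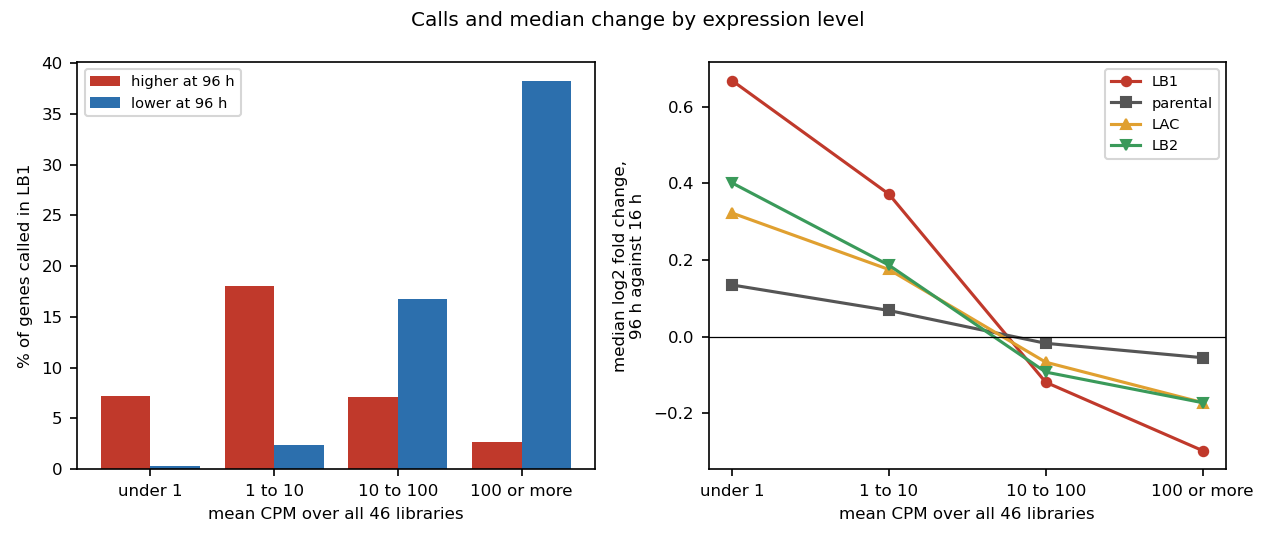
Genes tested in 4 classes of mean level (CPM): the percent called higher or lower at 96 h against 16 h in the Lamin B1 line, and the median log2 change in the Lamin B1, parental, Lamin A/C and Lamin B2 lines. Lower calls rise from 0.318% under 1 CPM to 38.2% at 100 CPM or more, and the Lamin B1 medians pass from 0.67 to -0.30.

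The lamin genes themselves were lower at the late time. LMNB1 (chr5:126776623-126837020, GRCh38, plus strand), which encodes the tagged protein, stood at 129, 137, 118 and 113 CPM in the 4 libraries at 16 h and at 84.7, 77.7, 84.1 and 99.5 CPM at 96 h. The groups did not overlap, and the log2 change was -0.52 ± 0.15 (SE, adjusted p = 0.00877, edgeR), a call lost with library size alone and with protein-coding genes of at least 10 CPM only. Before auxin its level was 100.2, 97.6 and 86.4 CPM in 3 libraries, a range that overlaps the late one (log2 -0.13 at 96 h against 0 h, adjusted p = 0.773, edgeR). In the parental line it went from 175 ± 1.81 CPM early to 183 ± 15.4 CPM late (SD, n = 4), and the 2 lines' changes differed by -0.58 (adjusted p = 0.139, edgeR), which does not pass.

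LMNA (chr1:156082573-156140081, plus strand) encodes lamins A and C, the A-type filaments of the lamina. It read 1133, 866, 739 and 680.0 CPM at 16 h and 258, 276, 344 and 368 CPM at 96 h. Every late library lay below every early one, and the log2 change of -1.46 ± 0.26 passed (adjusted p = 7.19e-05, edgeR). Its difference from the parental change was -1.23 (adjusted p = 0.0759, edgeR), outside the threshold. LMNB2, the second B-type lamin, was at 425, 342, 332 and 328 CPM at 16 h, replicate 1 standing above the other three, and at 184, 189.8, 246 and 292 CPM at 96 h. It fell by 0.65 on the log2 scale (adjusted p = 0.0216, edgeR), a call that was lost under 5 of the 19 alternatives tried. Of the 9 lamins and lamin-processing genes tested 4 fell, RCE1 (the protease that trims farnesylated proteins) being the fourth, none rose, and the difference from the parental line passed for none. Lower members were 1 of 3 at 10 to 100 CPM, beside 17.1% of protein-coding genes of that level. They were 3 of 5 at 100 CPM or more, beside 38.6%. RCE1 was lost under 9 of the 19 alternatives. The count of 4 became 1 with library size alone and 2 without Lamin B1 16 h replicate 1, 96 h replicate 1 or 96 h replicate 2.

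Among 25 genes of the inner nuclear membrane and the LINC complex, 11 fell and 1 rose, with a median log2 change of -0.41 against 0.00 in the parental line. At 100 CPM or more 5 of 12 were lower, 41.7% beside the 38.6% of that class, and the 11 became 4 with library size alone, 5 with relative log expression factors, 7 without Lamin B1 16 h replicate 1 and 5 and 6 without 96 h replicates 2 and 4. SYNE2 (chr14:63761899-64226433, plus strand), the giant nesprin that ties the outer nuclear membrane to actin, was the one that rose, from 40.3, 44.4, 41.6 and 47.7 CPM to 90.2, 93.6, 82.6 and 92.1 CPM. Its log2 change of 1.04 ± 0.17 exceeded the parental change by 0.98 (adjusted p = 0.0238, edgeR). TOR1AIP2, which encodes the torsin activator LULL1, went the other way, from 583, 573, 613 and 594 CPM to 336, 293, 338 and 348 CPM. Those libraries are tightly grouped at each time, and the change differed from the parental one by -0.65 (adjusted p = 0.0331, edgeR). CBX5 (HP1 alpha, which binds methylated histone H3 and the lamin B receptor) had means of 902 ± 59.9 CPM and 543 ± 80.2 CPM (SD, n = 4), with a log2 change of -0.73 (adjusted p = 5.26e-04, edgeR). SYNE3, a less abundant nesprin, was at 2.12 to 2.90 CPM early and 0.836 to 1.45 CPM late. The changes of CBX5 and SYNE3 did not pass the test against the parental line. Of 28 heterochromatin genes 7 were lower, among them DNMT1 (maintenance DNA methylation, log2 -0.54) and TRIM28 (the corepressor of KRAB zinc finger proteins, log2 -0.74), 1 was higher, and no difference from the parental line was called. With library size alone or protein-coding genes of at least 10 CPM only the split was 4 higher and 4 lower, and without Lamin B1 96 h replicate 1 or 2 the lower members were 4. At 10 to 100 CPM 2 of 18 heterochromatin genes were lower (11.1%), beside 17.1% of protein-coding genes of that level. At 100 CPM or more 5 of 9 were, beside 38.6%.

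**Figure D3:**
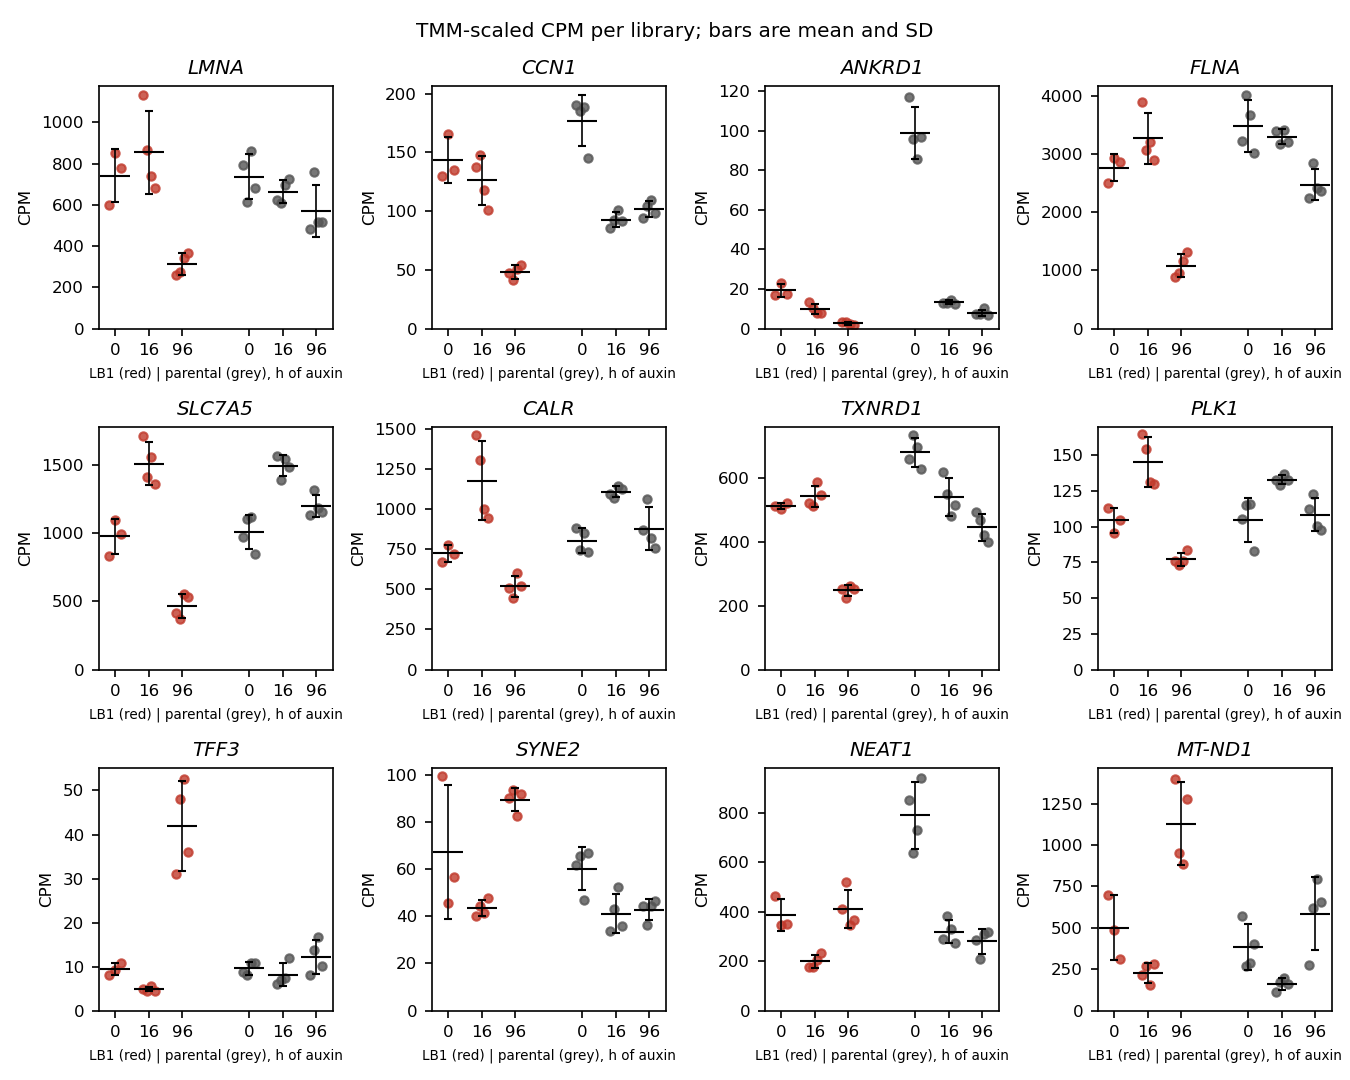
CPM of 12 genes in the Lamin B1 line (red) and the parental line (grey) at 0, 16 and 96 h of auxin, with 1 point per library and bars for the mean and SD. LMNA, CCN1, ANKRD1, FLNA, SLC7A5, CALR, TXNRD1 and PLK1 are lower at 96 h than at 16 h in the Lamin B1 line, TFF3, SYNE2, NEAT1 and MT-ND1 are higher, and no red point at 96 h overlaps those at 16 h in any of the 12.

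YAP and TAZ are coactivators that enter the nucleus on stiff or spread cells and switch on genes through TEAD factors. Of 24 such target genes 22 were tested (FOXF2 and RBMS3 were too low), 15 fell between 16 h and 96 h and 1, AMOTL1, was called higher. The median log2 change was -0.79, against -0.01 in the parental line, and 8 of the 9 members at 100 CPM or more were lower, where 38.6% of all protein-coding genes of that level were. The change differed from the parental line's for 8 members, all of them lower: AMOTL2, ANKRD1, CCN1, CCN2, F3, LATS2, NT5E and PTPN14. Under the 19 alternatives 11 to 17 members were lower, with medians from -0.86 to -0.61. The 8 differences were 4 without Lamin B1 96 h replicate 2 and 3 without parental 16 h replicate 4. AMOTL1 was at 0 in all 4 libraries at 16 h and at 0.228, 0, 0.155 and 0.199 CPM at 96 h, so that the groups overlap at 0 and no fold is given.

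CCN1 (chr1:85580761-85584589, plus strand) encodes a secreted matricellular protein. Its level was 137, 148, 118 and 101 CPM at 16 h and 47.0, 41.0, 51.0 and 53.9 CPM at 96 h, while the parental line gave 85.6, 92.1, 101 and 91.5 CPM and 93.8, 104, 109.5 and 98.6 CPM. All 4 late libraries of the Lamin B1 line lay below the other 12. Before auxin CCN1 was at 190, 185.1, 188.5 and 145 CPM in the parental line, above its level at both later times. The Lamin B1 line had 130, 166 and 135 CPM before auxin. The log2 change was -1.38 ± 0.17, and it differed from the parental change by -1.52 (adjusted p = 2.1e-04, edgeR). ANKRD1, an ankyrin repeat protein of muscle and injured tissue, was at 13.4, 10.6, 7.94 and 7.78 CPM and then 3.42, 3.42, 2.07 and 1.6 CPM. The parental line had it at 13.3 ± 0.949 and 7.98 ± 1.62 CPM (SD, n = 4), a change that did not pass (adjusted p = 0.0801, edgeR), and the difference between the lines was -1.12 (adjusted p = 0.0368, edgeR). Before auxin ANKRD1 was at 116.9, 96.08, 85.91 and 96.66 CPM in the parental line, far above both later times. In the Lamin B1 line it was at 17.11, 23.23 and 17.58 CPM before auxin.

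The 2 others named from this group act inside the pathway. LATS2, the kinase that phosphorylates YAP, read 78.2, 84.7, 85.7 and 88.0 CPM at 16 h and 42.2, 36.2, 40.3 and 51.1 CPM at 96 h. PTPN14, a phosphatase that binds YAP, read 257, 226, 223 and 199 CPM and 106, 111, 112 and 124 CPM. Neither gene's groups overlapped, and their changes of -0.99 and -1.0 differed from the parental ones by -0.86 (adjusted p = 0.00486, edgeR) and -0.79 (adjusted p = 0.0212, edgeR).

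TEAD factors bind the letters GGAATG or their reverse complement. In RefSeq windows from 250 bases before to 50 after the start of transcription (GRCh38.p14), these letters on either strand were found in 7 of the 18 members with a window (ANKRD1, CCN2, FOXF2, LATS2, NUAK2, PTPN14 and TGFB2) and in 14.0% of all 27305 windows. Of these 7, NUAK2 was not called and FOXF2 was not tested. The motifs given here and below were chosen after the list results were known, and a match is a description of the letters. The 250 bases before the start of CCN2 (chr6:131951373-131951622, minus strand) and of ANKRD1 (chr10:90921088-90921337, minus strand), 2 YAP targets with more than 1 match in those 250 bases, are shown with the matches in capitals. CCN2 was chosen after its values were seen, with means of 30.8 ± 2.89 CPM early and 16.5 ± 1.35 CPM late (SD, n = 4).
CCN2: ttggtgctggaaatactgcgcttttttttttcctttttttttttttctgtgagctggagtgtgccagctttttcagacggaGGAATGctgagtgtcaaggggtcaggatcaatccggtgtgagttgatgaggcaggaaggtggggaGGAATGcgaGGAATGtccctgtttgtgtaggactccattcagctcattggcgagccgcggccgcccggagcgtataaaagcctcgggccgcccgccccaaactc
ANKRD1: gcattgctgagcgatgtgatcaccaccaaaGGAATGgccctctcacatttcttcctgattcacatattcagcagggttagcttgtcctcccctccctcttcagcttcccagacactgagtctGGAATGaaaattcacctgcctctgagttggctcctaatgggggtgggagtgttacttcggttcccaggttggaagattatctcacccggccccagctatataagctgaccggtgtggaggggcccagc

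Serum response factor, with its actin-sensing coactivators, drives genes of the actin cytoskeleton. Of 25 such genes, all tested, 15 fell and none rose, with a median of -0.45 and -0.22 in the parental line. Of 18 members at 100 CPM or more 14 were lower. FLNA (chrX:154348524-154374634, minus strand), which crosslinks actin filaments, was at 3892, 3076, 3209 and 2897 CPM at 16 h and 881, 958, 1169 and 1322 CPM at 96 h. The 2 times are far apart against their own spread, and FLNA was the one member whose change of -1.59 ± 0.18 differed from the parental one, by -1.18 (adjusted p = 0.0104, edgeR). It also differed from the Lamin B2 line's change, by -1.29 (adjusted p = 0.0137, edgeR).

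ACTG1, cytoplasmic gamma actin, had means of 3531 ± 190.5 CPM early and 2203 ± 204 CPM late (SD, n = 4). CNN2, a calponin, read 523 to 601 CPM and then 269 to 371 CPM. CALD1, caldesmon, was lower in both lines, by a log2 change of -1.47 (adjusted p = 5.33e-07, edgeR) in the Lamin B1 line and -0.83 (adjusted p = 0.0462, edgeR) in the parental line. A CArG box of SRF, searched on both strands in 1 fixed spelling, was in none of the 21 members' promoter windows and in 10 of all 27305.

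CAVIN1 (chr17:42402449-42423256, minus strand), the coat protein of caveolae, the membrane pits that flatten under tension, had the largest fall among genes of at least 50 CPM named by rule. It was at 399, 277, 252 and 194 CPM at 16 h and 48.2, 46.5, 58.6 and 65.6 CPM at 96 h. Early libraries were spread and late ones were not. The rule that named CAVIN1 took only genes without overlap between the times. The log2 change of CAVIN1, -2.35 ± 0.26, differed from the parental change by -1.90 (adjusted p = 0.00305, edgeR). Before auxin it was at 162, 221 and 197 CPM, below or within the early values.

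Of 31 tested integrin and matrix genes 14 fell and 2, FN1 and ITGB3, rose, with a median of -0.39 against -0.15 in the parental line. Lower members were 4 of 12 at 10 to 100 CPM, beside 17.1% of protein-coding genes of that level. They were 9 of 14 at 100 CPM or more, beside 38.6%. THBS1 (thrombospondin 1, a secreted matrix protein) stood at 353, 379, 440.2 and 413 CPM and 129, 136, 157 and 119.7 CPM. Those groups are well apart, and the change of -1.55 differed from the parental one by -1.16 (adjusted p = 0.00486, edgeR). ITGB5 and ITGA3, subunits of receptors for vitronectin and laminin, had log2 changes of -1.02 and -1.02, and their differences from the parental line missed the threshold (adjusted p = 0.0536 and 0.0561, edgeR). PLAUR, the urokinase receptor, fell from 18.9 ± 1.25 to 9.36 ± 2.18 CPM (SD, n = 4), beyond the parental change (adjusted p = 0.0368, edgeR). Among 20 intermediate filament genes and their linkers 6 were lower and 1 higher (4 to 9 and 0 to 3 under the alternatives). At 100 CPM or more 6 of 7 were lower, beside 38.6%. KRT80, an epithelial keratin, was at 295, 260.4, 252 and 227 CPM and then 107, 118, 133 and 142 CPM, and was the one member whose change differed from the parental line's (by -0.88, adjusted p = 0.0146, edgeR). PLEC, which links keratins to hemidesmosomes and to the nucleus, had a log2 change of -1.21 ± 0.28, with no overlap between the times.

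ATF4 is the transcription factor of the integrated stress response and switches on amino acid uptake, amino acid synthesis and tRNA charging. Of 27 targets 26 were tested (STC2 was too low), 19 fell and 1, VLDLR, rose. The median was -0.69 in the Lamin B1 line and -0.11 in the parental line, and 14 of the 17 members at 100 CPM or more were lower. Under the alternatives 17 to 22 were lower. The change differed from the parental line's for 5 members, CHAC1, SESN2, SLC3A2, SLC7A11 and SLC7A5, all in the direction of a fall, of which 1 was left without Lamin B1 96 h replicate 2.

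SLC7A5 (chr16:87830023-87869507, minus strand), the transporter that brings in leucine and other large neutral amino acids, gave 1714, 1417, 1558 and 1363 CPM at 16 h and 415, 372, 551 and 536 CPM at 96 h. It was at 836, 1097 and 999 CPM before auxin, between the 2 times. Its log2 change of -1.69 ± 0.19 differed from the parental change by -1.37 (adjusted p = 0.00405, edgeR) and from the Lamin B2 line's by -1.19 (adjusted p = 0.0411, edgeR). CHAC1, which breaks down glutathione, was at 53.1, 41.5, 40.1 and 34.1 CPM and 17.9, 19.6, 24.1 and 19.5 CPM, with no overlap. GARS1, the glycyl-tRNA synthetase, and PSPH, the last enzyme of serine synthesis, had log2 changes of -0.93 and -0.84, and the differences from the parental line did not pass (adjusted p = 0.152 and 0.0985, edgeR). The letters TGATGNAA on either strand, the site of C/EBP-ATF dimers, were in 4 of 23 promoter windows (AARS1, ASNS, CHAC1 and SLC3A2) and in 3.67% of all. ASNS, which holds the site, was not called.

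The chaperones and disulfide isomerases of the endoplasmic reticulum fold secreted proteins and are raised by the unfolded protein response. Of 20, all tested, 13 fell and none rose. The median was -0.51 and 0.08 in the parental line, and 10 of 12 members at 100 CPM or more were lower. The change differed from the parental line's for 8, all lower: CALR, DNAJB11, DNAJC3, HSP90B1, HSPA5, HYOU1, PDIA3 and PDIA4. Alternatives gave 8 to 16 lower members, and without Lamin B1 96 h replicate 2 the differences from the parental line fell to 1.

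CALR (chr19:12938578-12944489, plus strand), the calcium-binding lectin chaperone calreticulin, was at 1460.2, 1304, 1002 and 944 CPM at 16 h and 507, 444, 602 and 521 CPM at 96 h, with 672, 778 and 719.7 CPM before auxin. The early libraries were the highest of the 3 times and the late ones the lowest. Its log2 change of -1.18 ± 0.15 differed from the parental one by -0.85 (adjusted p = 0.0356, edgeR). HSP90B1 (GRP94) was at 825, 881, 899.7 and 900.1 CPM and 438, 350.1, 547 and 435 CPM. The isomerases PDIA4 and PDIA3 had log2 changes of -1.02 and -0.90, -0.89 and -0.83 beyond the parental ones (adjusted p = 0.0207 and 0.0241, edgeR).

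The endoplasmic reticulum stress element, searched as CCAAT, any 9 bases and CCACG on either strand, was in the windows of 6 of the 19 members that have one (CALR, CANX, CRELD2, HSP90B1, HSPA5 and XBP1) and in 22 of all 27305 windows, 0.0806%. CANX, which holds the element, is not among the 13 called. The 250 bases before the RefSeq start of CALR (chr19:12938359-12938608, plus strand) and HSPA5 (chr9:125241344-125241593, minus strand) are shown because their change differed from the parental line's, with the element in capitals.
CALR: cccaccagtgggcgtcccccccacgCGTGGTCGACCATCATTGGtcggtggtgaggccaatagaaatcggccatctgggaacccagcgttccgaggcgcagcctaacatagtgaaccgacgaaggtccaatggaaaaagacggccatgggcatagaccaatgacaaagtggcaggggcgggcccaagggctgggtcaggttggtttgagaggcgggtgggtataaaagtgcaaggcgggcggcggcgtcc
HSPA5: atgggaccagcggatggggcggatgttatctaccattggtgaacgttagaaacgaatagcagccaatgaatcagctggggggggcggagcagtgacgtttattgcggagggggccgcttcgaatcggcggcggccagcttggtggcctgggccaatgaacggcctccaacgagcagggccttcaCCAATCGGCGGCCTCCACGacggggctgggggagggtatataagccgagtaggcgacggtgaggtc

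NRF2 drives the genes that keep glutathione and thioredoxin reduced. Of 20 tested targets 10 fell and 1, AKR1C3, rose, with a median of -0.42 against 0.02 in the parental line. Of 11 members at 100 CPM or more 6 were lower, and the count ranged from 5 to 13 under the alternatives. TXNRD1 (chr12:104215779-104350307, plus strand), thioredoxin reductase, was at 521, 513, 588 and 546 CPM and 251, 225, 263 and 251 CPM. Its change of -1.13 ± 0.11 differed from the parental one by -0.85 (adjusted p = 0.00115, edgeR) and from the Lamin A/C line's by -0.66 (adjusted p = 0.0339, edgeR).

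SRXN1, sulfiredoxin, was scarcer, at 7.75, 9.49, 5.70 and 3.95 CPM early and 1.90, 1.17, 2.07 and 1.70 CPM late, and its difference from the parental line of -2.11 (adjusted p = 0.0207, edgeR) was lost without Lamin B1 96 h replicate 2 and without parental 96 h replicate 3. SLC7A11, the cystine importer counted under both ATF4 and NRF2, was at 152, 179, 205 and 188 CPM and 111, 85.0, 87.7 and 80.7 CPM. NQO1, a quinone reductase counted under both NRF2 and the aryl hydrocarbon receptor, fell to 248 ± 33.4 from 413 ± 39.3 CPM (SD, n = 4) and differed from the parental line (by -0.82, adjusted p = 0.0136, edgeR). The antioxidant response core TGACNNNGC was in 4 of 17 windows (GCLM, ME1, PGD and TXNRD1) and in 13.6% of all. PGD, which holds the core, was not called.

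Of 11 aryl hydrocarbon receptor targets tested 5 fell and none rose, among them ALDH3A1 (log2 -0.99) and CYP1B1 (log2 -0.57), enzymes of xenobiotic metabolism. Lower members were 3 of 5 at 10 to 100 CPM, beside 17.1% of protein-coding genes of that level. They were 2 of 4 at 100 CPM or more, beside 38.6%. Of 16 heat shock genes 8 fell and none rose. At 100 CPM or more 6 of 11 were lower (54.5%), beside 38.6% of protein-coding genes of that level. The 8 became 3 and 5 without Lamin B1 96 h replicates 2 and 4, and 4 with library size alone. HSP90AA1, the inducible cytosolic HSP90, had means of 3194 ± 122 and 2180.5 ± 260.1 CPM (SD, n = 4), and HSPH1, a nucleotide exchange factor of HSP70, was lower by a log2 change of -0.57, -0.61 beyond the parental line (adjusted p = 0.0492, edgeR). The inducible HSPA6 was at 0.654 to 2.37 CPM early and 0.233 to 0.499 CPM late.

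**Figure D4:**
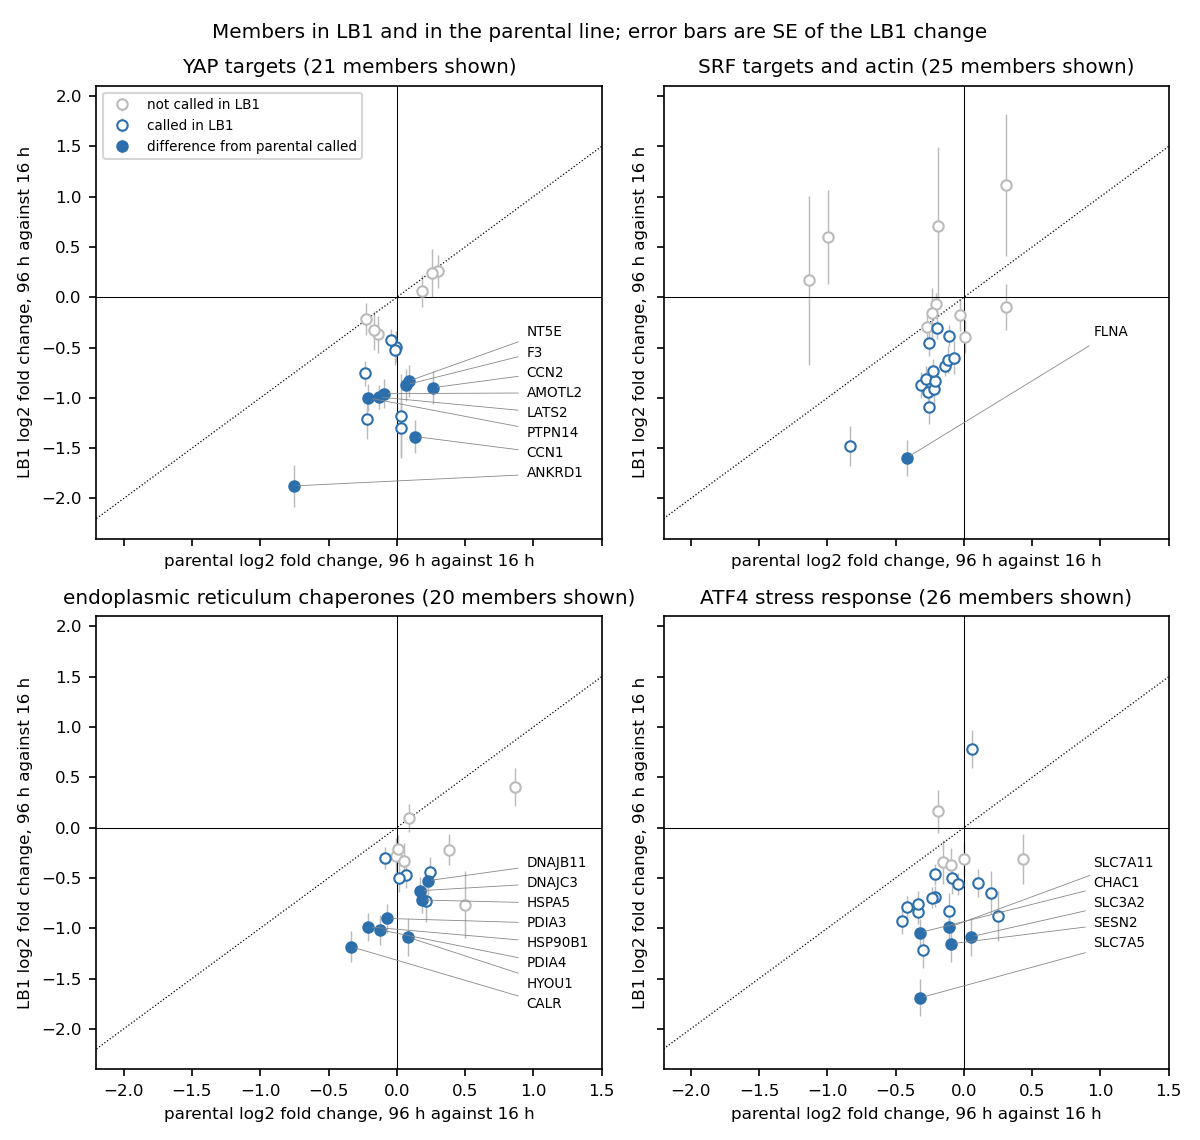
Log2 change from 16 h to 96 h of each tested member of 4 lists in the Lamin B1 line (vertical) against the parental line (horizontal), with SE bars, filled where the difference between the lines was called and with a dotted line where both are equal. The YAP panel omits AMOTL1, and the filled points number 8 among YAP targets, 1 among SRF and actin genes, 8 among chaperones and 5 among ATF4 targets.

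ERK signalling induces its own phosphatases and other feedback genes. Of 17 tested 6 fell and 2, EPHA4 and SPRED3, rose, with 1 to 4 higher and 6 to 9 lower under the alternatives. Lower members were 0 of 6 at 10 to 100 CPM, beside 17.1% of protein-coding genes of that level. They were 6 of 9 at 100 CPM or more, beside 38.6%. DUSP6, the phosphatase that inactivates ERK, was at 176, 218, 229 and 198 CPM and 96.8, 76.3, 103 and 106 CPM, with no overlap. The change of -1.10 ± 0.13 differed from the parental one by -0.82 (adjusted p = 0.0202, edgeR). EPHA2, an ephrin receptor, was at 159 to 242 CPM and 100.2 to 114 CPM, and CCND1, cyclin D1, counted under ERK and WNT, had means of 1171 ± 36.9 and 721 ± 104 CPM (SD, n = 4). Both differed from the parental line (adjusted p = 0.0385 and 0.0327, edgeR).

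The 30 immediate early genes, which answer growth factors and handling within minutes, split: 6 rose, 8 fell and 16 were not called. In the parental line 4 rose and none fell. EGR1, a zinc finger factor, read 398, 479, 346 and 431 CPM at 16 h and 513, 514, 564 and 765 CPM at 96 h, a log2 change of 0.51 (adjusted p = 0.0178, edgeR) beside 0.92 in the parental line (adjusted p = 8.01e-04, edgeR). FOS, a subunit of AP-1, read 38.9, 34.6, 36.0 and 56.1 CPM and 63.2, 72.6, 90.2 and 92.6 CPM. IER3, a survival factor counted also as ERK feedback, went down, from 341, 265, 189 and 181 CPM to 94.4, 76.6, 86.6 and 101 CPM, and differed from the parental line by -1.29 (adjusted p = 0.024, edgeR). The changes of ATF3, CSRNP1, FOSL1 and PPP1R15A also lay below the parental ones. FOSL1 (log2 -0.34, adjusted p = 0.0772, edgeR) and PPP1R15A (log2 -0.46, adjusted p = 0.103, edgeR) were not called within the Lamin B1 line. The median of the list was -0.07, and its sign turned under 6 alternatives, with 4 to 9 higher and 5 to 13 lower members.

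Of 22 tested cytokine and chemokine genes and their regulators 7 fell and 1 rose. Lower members were 6 of 9 at 10 to 100 CPM, beside 17.1% of protein-coding genes of that level, and 1 of 1 above it. CXCL5, a chemokine for neutrophils, was at 81.1, 74.8, 103 and 82.8 CPM and 52.8, 28.7, 38.2 and 37.2 CPM. IL18, an epithelial interleukin, was at 69.9, 74.2, 69.2 and 53.8 CPM and 41.9, 32.4, 31.3 and 29.1 CPM. LIF, a cytokine of the IL-6 family, was at 60.2 to 99.3 CPM and 36.4 to 45.1 CPM, and all 3, with RELB, differed from the parental line. NFKBIZ, an inducible nuclear IkB protein, rose from 19.9 ± 1.68 to 34.4 ± 4.32 CPM (SD, n = 4). Of 32 interferon-stimulated genes 6 were lower and 2 higher, but 4 lower and 6 higher with library size alone. At 10 to 100 CPM 2 of 13 were lower (15.4%), beside 17.1% of protein-coding genes of that level. At 100 CPM or more 3 of 4 were, beside 38.6%. OAS1 rose (log2 0.90) while OAS2 (log2 -0.90) and OAS3 (log2 -0.56), which make the same second messenger, fell, as did HERC5 (log2 -1.05), and the difference from the parental line passed for no member.

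Of 40 mitotic genes 18 fell and none rose, with a median of -0.36 against -0.10 in the parental line. The count of 18 moved between 10 and 30 under the alternatives, and 10 of 23 members at 100 CPM or more were lower, near the 38.6% of that class. PLK1 (chr16:23677656-23690367, plus strand), the kinase of mitotic entry, was at 165, 154, 131 and 130.1 CPM and 75.7, 73.4, 76.1 and 83.9 CPM, and was the one member whose change of -0.91 ± 0.11 differed from the parental one (by -0.62, adjusted p = 0.0385, edgeR). CDC20, which activates the anaphase-promoting complex, had means of 296 ± 19.7 and 160.3 ± 17.0 CPM (SD, n = 4). TPX2 and AURKA, a spindle assembly factor and the kinase it activates, had log2 changes of -0.74 and -0.69.

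Of 44 genes of DNA replication 14 fell and 1, E2F8, rose, with a median of -0.25. At 100 CPM or more 9 of 19 were lower, beside 38.6% of that class. Library size alone gave 6 higher and 4 lower, protein-coding genes of at least 10 CPM only 7 and 4, and without Lamin B1 96 h replicate 2 there were 5 lower (7 without 96 h replicate 1 and 8 without 96 h replicate 4 or 16 h replicate 2). The helicase subunits MCM2 and MCM4 had log2 changes of -0.64 and -0.48, and GINS4 of -0.54. The difference from the parental line passed for none of the 44. Of the 45 replication-dependent histone genes tested, edgeR called none, 3 had an unadjusted p under 0.05, DESeq2 called 1 and voom 5. Of 23 p53 targets 6 were lower and 2 higher: GDF15, a stress cytokine, went from 570.0, 449.8, 357 and 319.8 CPM to 161, 144, 209 and 195 CPM, SESN2, an inhibitor of mTORC1 counted also under ATF4, from 44.3, 35.0, 32.7 and 29.1 CPM to 13.5, 15.1, 15.7 and 18.7 CPM, and MDM2, the ligase for p53, had a log2 change of -0.64. GDF15, SESN2 and AEN differed from the parental line, and MDM2 did not pass (adjusted p = 0.0742, edgeR). At 10 to 100 CPM 3 of 17 p53 targets were lower (17.6%), beside 17.1% of protein-coding genes of that level. At 100 CPM or more 3 of 4 were, beside 38.6%.

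Among genes of secretory and absorptive epithelium more rose than fell. Of 30 in the list 17 were tested, 7 rose and 1, HNF4A, fell, with a median of 0.84 and 0.47 in the parental line. Most are low genes, a level at which protein-coding genes more often rose than fell. Under 1 CPM 2 of 5 rose, beside 9.15% of that class, and at 1 to 10 CPM 3 of 6, beside 17.5%. The medians of these members were 1.58 and 0.99, beside class medians of 0.64 and 0.30. At 10 to 100 CPM 2 of 4 rose, beside 6.19%. The 13 left untested were too low in these cells, MUC2, FABP1 and APOA1 among them, and the count of 7 ranged from 2 to 9 under the alternatives. TFF3 (chr21:42311667-42315409, minus strand), the trefoil peptide of goblet cells, was at 4.90, 4.45, 5.70 and 4.55 CPM at 16 h and 30.9, 48.2, 52.7 and 36.1 CPM at 96 h. In the parental line it was at 6.01, 7.06, 7.41 and 11.9 CPM and 8.17, 13.7, 16.8 and 10.2 CPM. The late libraries of the Lamin B1 line lay above every other of these 16. The log2 change of 3.10 ± 0.21 differed from the parental change by 2.51 (adjusted p = 7.76e-07, edgeR), from the Lamin A/C line's by 1.85 (adjusted p = 2.85e-04, edgeR) and from the Lamin B2 line's by 2.11 (adjusted p = 7.3e-05, edgeR).

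The 2 other trefoil genes, TFF1 and TFF2, were at 1.54 to 3.87 and 0.0934 to 0.323 CPM early and at 8.79 to 10.4 and 0.988 to 3.31 CPM late, and their differences from the parental line did not pass (adjusted p = 0.231 and 0.321, edgeR). S100P, a calcium-binding protein of gut epithelium and tumours, was the most raised abundant nuclear gene, at 22.0, 25.7, 25.3 and 20.7 CPM and 138, 147, 134 and 109.9 CPM. It rose in the parental line as well (log2 1.58, adjusted p = 2.31e-08, edgeR), and the excess of 0.92 in the Lamin B1 line passed (adjusted p = 0.0322, edgeR), as did that over the Lamin B2 line (log2 1.14, adjusted p = 0.0264, edgeR). CEACAM5, the carcinoembryonic antigen, was at 0.158 to 0.932 CPM and then 4.89 to 9.00 CPM, and UPK2, a uroplakin, at 0.0934 to 0.316 CPM and 1.75 to 3.72 CPM. Their log2 changes in the parental line were 1.82 (adjusted p = 0.143, edgeR) and 1.79 (adjusted p = 0.0372, edgeR). DHRS3, a retinaldehyde reductase, was at 2.85, 2.71, 3.08 and 5.31 CPM and 30.9, 35.4, 36.5 and 26.8 CPM, 1.80 beyond the parental change (adjusted p = 0.0385, edgeR).

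Other large changes were PSCA, a membrane antigen of stomach and bladder, at 0.387 to 1.12 CPM early and 5.88 to 8.17 CPM late, ABCG1, a sterol exporter, at 0 to 0.395 and 1.4 to 2.29 CPM, and IGFL1 at 0 to 0.474 and 1.6 to 3.21 CPM. Among the largest falls, ALPP, placental alkaline phosphatase, went from 64.0, 42.8, 35.5 and 25.2 CPM to 8.44, 8.01, 11.7 and 8.77 CPM, and STX11, a syntaxin, from 6.54 ± 1.20 to 1.73 ± 0.717 CPM (SD, n = 4). TNC, the matrix protein tenascin C, fell in both lines, by log2 changes of -2.01 in the Lamin B1 line and -1.80 in the parental line. RASSF9 was at 8.69, 10.7, 11.7 and 9.97 CPM and 3.34, 1.87, 2.79 and 2.19 CPM. It fell in the parental line too (log2 -0.96, adjusted p = 0.00117, edgeR), and its fall in the Lamin B1 line was the greater one against the parental (adjusted p = 0.0252), Lamin A/C (adjusted p = 4.95e-04) and Lamin B2 lines (adjusted p = 0.00178, all edgeR).

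By the size of the difference from the parental line the highest were low genes. CCR9, a chemokine receptor of gut-homing lymphocytes, and the pseudogene PPIAP71 had no count in any library at 16 h, where 0 allows up to 3 counts, and stood at 0.912, 0.934, 1.09 and 0.499 CPM and 0.836, 0.934, 0.620 and 0.997 CPM at 96 h. PRSS1, a trypsinogen with near-identical copies, was at 0 to 0.0968 CPM and 0.982 to 1.90 CPM, and the pseudogene RPL36AP41 at 0.0934 to 0.574 and 0.598 to 2.02 CPM. PDF, the mitochondrial peptide deformylase, was at 10.6, 21.3, 6.63 and 4.84 CPM early and 4.71, 3.81, 3.67 and 4.29 CPM late, close to overlap, and TPGS1, a tubulin polyglutamylase subunit, at 11.7, 8.81, 8.22 and 4.41 CPM and 4.03, 4.75, 4.14 and 2.89 CPM, with overlap. The differences of CCR9, PDF and PRSS1 were lost under 12 of 25, 15 of 26 and 6 of 26 alternatives.

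Genes of hypoxia and glycolysis went both ways. Of 34 tested 7 rose and 9 fell (5 to 13 and 8 to 13 under the alternatives), and 5 of those that rose, CA9, EGLN3, NDRG1, PDK1 and PFKFB4, differed from the parental line, 2 of them still without Lamin B1 96 h replicate 2. At 10 to 100 CPM 5 of 18 were higher and 4 lower, beside 6.19 and 17.1% of protein-coding genes of that level. At 100 CPM or more 5 of 12 were lower (41.7%), beside 38.6%. NDRG1, a stress protein induced by hypoxia, was at 20.4, 22.9, 18.7 and 36.2 CPM and 44.0, 53.8, 67.2 and 68.1 CPM, while the parental line gave 37.9, 59.1, 55.0 and 70.8 CPM and 34.7, 35.4, 39.8 and 32.5 CPM. Its change was 1.23 ± 0.16 in the Lamin B1 line and -0.65 in the parental line (adjusted p = 0.0769, edgeR), a difference of 1.87 (adjusted p = 1.63e-06, edgeR). PDK1, the kinase that keeps pyruvate from mitochondria, read 34.1, 42.7, 43.5 and 50.2 CPM and 91.5, 84.8, 80.1 and 71.4 CPM. CA9, a carbonic anhydrase, was at 0, 0, 0 and 0.430 CPM and 0.456, 0.934, 1.34 and 0.997 CPM, and its call within the Lamin B1 line did not hold under all alternatives. PKM, pyruvate kinase, went down (log2 -0.69), as did the glucose transporter SLC2A3 (log2 -1.59), which fell in the parental line too (log2 -0.75, adjusted p = 0.0197, edgeR).

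Of 18 WNT feedback targets 6 were lower and 1 higher. At 10 to 100 CPM 2 of 10 were lower (20.0%), beside 17.1% of protein-coding genes of that level. At 100 CPM or more 4 of 5 were, beside 38.6%. LGR5, the R-spondin receptor of intestinal stem cells, was at 21.5, 27.9, 28.5 and 26.2 CPM and 15.9, 11.6, 11.4 and 10.8 CPM, after 14.8 ± 2.48 CPM before auxin (SD, n = 3). ZNRF3, a ligase that removes WNT receptors, and the factor SOX4 had log2 changes of -0.68 and -0.67, and neither differed from the parental line by the test. Of 21 tested clock genes 5 fell and 2, BHLHE40 and NPAS2, rose. At 10 to 100 CPM 3 of 13 clock genes were lower (23.1%), beside 17.1% of that level. At 100 CPM or more 2 of 4 were, beside 38.6%. BHLHE40 was lost under 5 of 19 alternatives, among them those without Lamin B1 16 h replicate 3 or 4 and 96 h replicate 2 or 3, and CRY2 and CSNK1D, 2 of those that fell, under 11 each. With relative log expression factors or library size alone 3 were higher and 3 lower, and without 96 h replicate 1 or 2 there were 3 lower. NR1D1, the repressor REV-ERB alpha, was at 19.8, 22.7, 22.9 and 24.0 CPM and 10.8, 10.3, 13.9 and 16.3 CPM, and was the one clock gene that differed from the parental line (by -0.94, adjusted p = 0.0383, edgeR). The E-box CACGTG was in 5 of 20 clock promoter windows (BHLHE40, BHLHE41, CIART, PER1 and TEF) and in 7.43% of all. Of these 5, TEF fell, BHLHE40 rose, BHLHE41 and PER1 were not called and CIART was not tested.

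Few genes of lipid synthesis were called. Of 25 cholesterol genes 2 were higher and 2 lower, among them INSIG1 (log2 0.38), which holds back sterol synthesis, and EBP (log2 -0.56), a sterol isomerase. EBP was lost under 11 and INSIG1 under 9 of 19 alternatives, and the split was 5 higher and 0 lower with library size alone and 0 to 4 higher and 0 to 2 lower with any 1 of the 8 libraries left out. The cholesterol median was 0.00, beside -0.24 in the parental line. HSD17B7 changed upward of the parental line by edgeR, without a call in the Lamin B1 line alone. For that difference 8 of 25 were higher and 0 lower at an unadjusted p under 0.05 (edgeR). DESeq2 called 5 higher and voom 6. Of 11 fatty acid genes 4 were lower, FASN (fatty acid synthase) by a log2 change of -0.85, and 1 higher, the desaturase SCD, from 434 ± 24.7 to 655 ± 76.0 CPM (SD, n = 4). Lower members were 1 of 5 at 10 to 100 CPM, beside 17.1% of protein-coding genes of that level. They were 3 of 6 at 100 CPM or more, beside 38.6%. FASN and SCD held under all 19 alternatives, while the list gave 3 higher and 1 lower with library size alone, 1 lower without Lamin B1 16 h replicate 3 or 96 h replicate 2, and 2 lower without 96 h replicate 1 or 4.

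Of the 15 mitochondrial genome transcripts 13 rose and none fell, with a median log2 change of 1.92. The parental line gave 12 higher and a median of 1.53, and no transcript differed between the lines. MT-ND1, a subunit of complex I, was at 212, 271, 152 and 279 CPM at 16 h and 1399.8, 949.7, 886 and 1277 CPM at 96 h, after 701, 488 and 311 CPM at 0 h. The early libraries were the lowest of the 3 times. MT-ND6, read from the light strand, had a log2 change of 2.46, MT-ND5 of 2.20 and MT-CO3 of 1.77. The 49 nuclear genes of the respiratory chain were divided: 5 rose, NDUFV2 (log2 0.88) and COX6C (log2 0.65) among them, and 5 fell, ATP5F1B (log2 -0.62) and NDUFS1 (log2 -0.40) among them. This split was not stable: it was 11 higher and 1 lower with library size alone, 9 and 3 with GC and length trends taken out, and 3 to 7 higher and 2 to 6 lower with any 1 of the 8 libraries left out, and the sign of the median turned under 8 alternatives.

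Of 76 cytosolic ribosomal protein genes, which have many processed pseudogenes that can take their reads, 17 rose and 1, RPS2 (log2 -0.57), fell. The 17 became 27 with library size alone, and 8, 11, 9 and 11 without Lamin B1 16 h replicate 1, 2, 3 and 4. RPS18 was at 471, 424, 492 and 454 CPM and 858, 846, 778 and 839.9 CPM, and RPL9 and RPS21 had log2 changes of 0.69 and 0.79. None of the 76 differed from the parental line, and the median of 0.16 lies beside 0.22 there.

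Among 12 tested abundant nuclear noncoding RNAs 3 rose and 1, SNHG16 (log2 -0.45), fell. SNHG16 was lost under 11 of 18 alternatives, 6 of them leaving out 1 of the 8 libraries, and with relative log expression factors or library size alone 6 rose and none fell. Without Lamin B1 96 h replicate 4 the count that rose was 5. NEAT1, the scaffold of paraspeckles, was at 178, 177, 206 and 234 CPM and 411, 518, 347 and 365 CPM, and at 462, 348 and 350.3 CPM before auxin. In the parental line it was at 289, 380.5, 329 and 275 CPM and 287, 208, 309.8 and 318 CPM. Its change of 1.04 ± 0.17 differed from the parental one by 1.23 (adjusted p = 0.00486, edgeR). KCNQ1OT1, the antisense RNA that silences an imprinted cluster, was at 30.5, 33.7, 31.4 and 36.6 CPM and 95.3, 144, 106 and 86.3 CPM, a change 1.18 beyond the parental one (adjusted p = 0.0207, edgeR). MALAT1, of nuclear speckles, had means of 19.6 ± 6.19 and 42.9 ± 9.49 CPM (SD, n = 4) and a change beside that of the parental line (1.14 and 1.04).

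**Figure D5:**
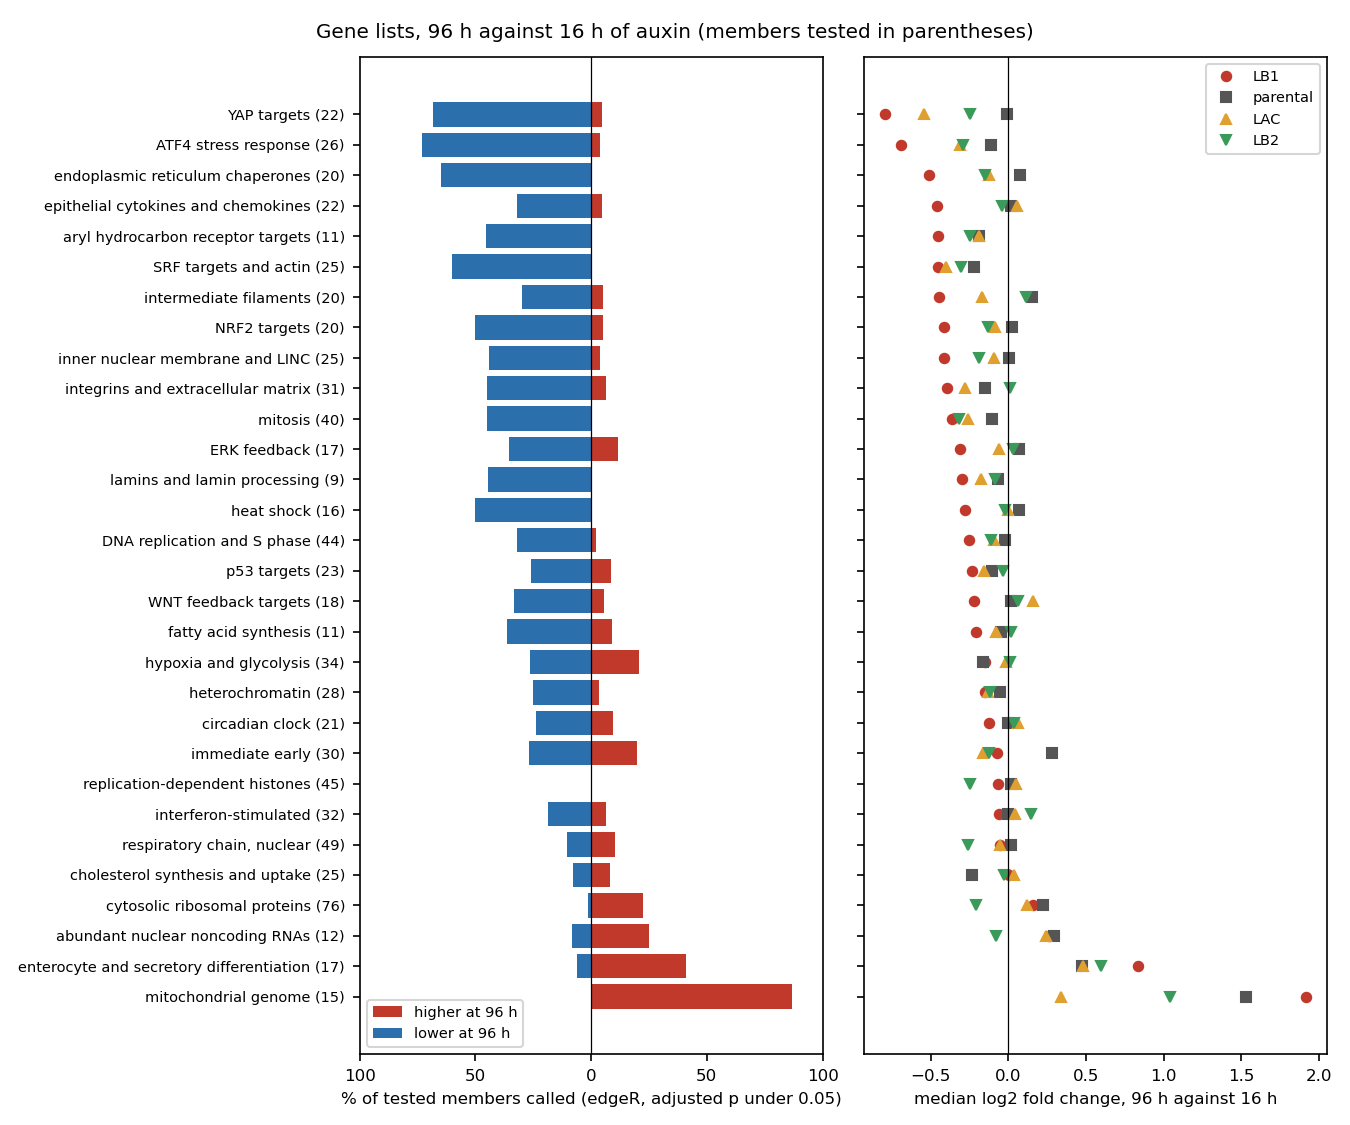
For each gene list, the percent of tested members called higher (red) or lower (blue) at 96 h against 16 h in the Lamin B1 line, and the median log2 change of the list in the Lamin B1, parental, Lamin A/C and Lamin B2 lines. YAP targets have the lowest Lamin B1 median at -0.79 and mitochondrial transcripts the highest at 1.92, and the parental medians of these 2 lists are -0.01 and 1.53.

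The levels before auxin show which time departs from the untreated one in the Lamin B1 line. The 3 comparisons share libraries, so their values are set side by side only. The Lamin B1 line gave 323 calls (1.5%) at 16 h against 0 h and 682 (3.17%) at 96 h against 0 h, beside the 4379 between 16 h and 96 h. The 0 h group has 3 libraries, 1 of them (replicate 2) with only 1452968 counts, against 4 libraries in each group of the latter comparison. For ATF4 targets the median log2 change was 0.01 at 16 h and -0.74 at 96 h against 0 h, and for YAP targets 0.13 and -0.60. Endoplasmic reticulum chaperones had 0.29 and -0.24, and SRF and actin genes 0.20 and -0.30, on both sides of the untreated level. Heat shock genes had 0.30 and -0.03, so their late level lay near the untreated one. Mitochondrial transcripts had -1.05 and 0.82. Among single genes CCN1 had -0.18 (adjusted p = 0.68) and -1.56 (adjusted p = 2.63e-08), LMNA 0.20 (adjusted p = 0.781) and -1.25 (adjusted p = 0.00359), and TFF3 -0.94 (adjusted p = 0.0331) and 2.17 (adjusted p = 7.43e-09), all by edgeR. The parental line was not tested against its own 0 h, so these departures are not set against auxin alone. Parental CCN1 was at 145 to 190 CPM at 0 h and 85.62 to 101 CPM at 16 h. Parental ANKRD1 was at 85.91 to 116.9 CPM and 12.65 to 14.67 CPM.

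The Lamin A/C and Lamin B2 lines, over the same times, had medians below 0 for the YAP, ATF4, SRF and chaperone lists. For YAP targets the medians were -0.54 and -0.25, for ATF4 targets -0.31 and -0.29, for SRF and actin genes -0.40 and -0.31, and for chaperones -0.13 and -0.15. All protein-coding genes at 100 CPM or more had medians of -0.17 in both lines, which the chaperone medians do not go below. CCN1 had a log2 change of -1.96 in the Lamin A/C line and -1.31 in the Lamin B2 line, and their differences from the -1.38 of the Lamin B1 line did not pass (adjusted p = 0.566 and 0.963, edgeR). Of the genes the naming rule chose, TFF3, PSCA, RASSF9, FOS, FOSB, NQO1, SCD, TXNRD1 and MT-ATP6 differed from the Lamin A/C line and TFF3, RASSF9, S100P, SLC7A5, FLNA, THBS1, ITGB5, ITGA3 and RPL9 from the Lamin B2 line. TFF3 and RASSF9 are in both lists. The count against the Lamin B2 line rests on few libraries: it was 31 in full, 301 without Lamin B2 16 h replicate 1 and 9 without its 96 h replicate 2 or 3.

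Lists in which no gene was called in a direction were checked with the other tools. Higher members were called neither by edgeR nor by DESeq2 or voom among lamin, heat shock, mitotic and aryl hydrocarbon receptor genes, and none had an unadjusted p under 0.05. Among SRF and actin genes voom called 1 higher, and among chaperones DESeq2 called 1 and 1 had an unadjusted p under 0.05. For the difference from the parental line, where edgeR called no lamin gene, 3 were lower at an unadjusted p under 0.05 voom called 3 and DESeq2 none. The corresponding unadjusted counts were 7 of 28 heterochromatin genes, 11 of 44 replication genes, 5 of 32 interferon-stimulated genes, 5 of 76 ribosomal protein genes, 4 of 49 respiratory chain genes and 1 of 15 mitochondrial transcripts. DESeq2 called 0, 1, 1, 0, 0 and 0 of them and voom 3, 5, 4, 4, 3 and 0. The unadjusted counts were 6 of 14 epithelial markers and 2 of 11 fatty acid genes. DESeq2 called 1 and 0 of these and voom 2 and 3.

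Of the genes given by library, ALPP, AMOTL1, CA9, CALR, CCR9, CXCL5, DUSP6, FLNA, HSP90B1, IER3, IL18, KCNQ1OT1, KRT80, LATS2, LGR5, NR1D1, PDF, PDK1, PLK1, PTPN14, SLC7A11, SLC7A5, SYNE2, THBS1, TPGS1 and TXNRD1 overlap another gene on the opposite strand and CAVIN1, DHRS3, GDF15, LMNB2, NDRG1, NEAT1, PPIAP71 and SRXN1 overlap one on the same strand. The kit records strand, but whether the counting used strand is not given in the sources used here, so these values are uncertain where the partner is expressed.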

How the data were processed

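RNA-seq counts per gene were analysed for 46 libraries in 12 groups, grouped by the labels, with the Lamin B1 line at 96 h and 16 h (4 and 4 libraries) as the comparison described. The authors deposited 1 table of raw counts. Reads were aligned with STAR 2.7.10a to GRCh38 and counted with featureCounts 1.6.4, and SAMtools 1.10, deepTools 3.4.5 and DESeq2 1.40.2 were also used, per the submitters' processing notes. The featureCounts path in the table comes from an nf-core/rnaseq 1.4.2 environment, per the file headers. The strand setting and the annotation release are not given in the sources used here. The table holds 62756 genes, and 1 gene broken over 3 lines was left out. Gene symbols came from the reference tables supplied with the data (40869 genes, 65.1%), and gene types and positions from GENCODE release 29, which held 92.9% of the genes.

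Genes were filtered with filterByExpr over the 12 groups, counts were scaled by TMM, and a quasi-likelihood model over all 46 libraries was fitted with edgeR 4.0.16 in R 4.3.3. P-values were adjusted by Benjamini-Hochberg over 21484 genes, and genes under 0.05 were called. The change in the Lamin B1 line was tested against that of the parental, Lamin A/C and Lamin B2 lines as an interaction. CPM values carry the TMM factors, errors of fold changes are SEs, and 868 genes were set into 34 lists, 867 of them in the count table. Genes under the filter were not tested. The procedure was tested on simulated data. Alternatives were DESeq2 1.42.0, voom with sample weights in limma 3.58.1, other scalings and filters, a GC and length correction, a replicate block and leaving out each library. Another alternative left out the 6 libraries under 5000000 counts (totals ran from 479446 to 37309421). The fits without mitochondrial genes and with protein-coding genes of at least 10 CPM only were chosen after seeing the data.

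Named were the lamins, then, of called protein-coding genes whose 4 and 4 libraries do not overlap, the 8 largest rises and falls at a mean of at least 1 CPM and the 5 at 50 CPM or more, then, of called genes of any type and overlap, the 5 largest each way by a called difference from the parental line, up to 4 called members per list by p, and all tested clock and immediate early genes. Of the genes so named, 5 are not reported here. The members, lists, motifs and tests were chosen with earlier results of these data known. Promoter windows, 250 bases before to 50 after a start, came from RefSeq.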

Additional observations from a re-analysis of the deposited data

Results flagged for a closer look

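Within the 4 libraries of a time, 1 library stood apart from its group (Dixon's ratio of the gap to the range) for 12 of 350 gene and time combinations of the named genes, 3.43%, where chance gives about 1 in 20. Above the rest, LMNB2 stood at 425 CPM in 16 h replicate 1, against 328 to 342 CPM in the other three. DHRS3 stood at 5.31 CPM in 16 h replicate 4, against 2.71 to 3.08 CPM in the other three. STX11 stood at 2.80 CPM in 96 h replicate 2, against 1.29 to 1.5 CPM in the other three. CA9 stood at 0.430 CPM in 16 h replicate 4, against 0 in the other three. NPAS2 stood at 26.5 CPM in 96 h replicate 4, against 15.8 to 17.3 CPM in the other three. HERC5 stood at 9.48 CPM in 16 h replicate 1, against 7.10 to 7.36 CPM in the other three. LGR5 stood at 15.9 CPM in 96 h replicate 1, against 10.8 to 11.6 CPM in the other three. MUC5B stood at 4.36 CPM in 96 h replicate 2, against 2.36 to 2.59 CPM in the other three. Below the rest, MT-ND6 stood at 27.4 CPM in 16 h replicate 3, against 53.6 to 56.5 CPM in the other three. KLF10 stood at 84.2 CPM in 16 h replicate 1, against 103 to 106 CPM in the other three. FKBP4 stood at 149.5 CPM in 16 h replicate 2, against 162 to 163 CPM in the other three. COX6C stood at 28.3 CPM in 96 h replicate 3, against 32.7 to 33.5 CPM in the other three. LMNB2, HERC5 and KLF10 involve replicate 1 at 16 h, the library farthest from the others at that time on the first principal component.

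For 53 of the genes chosen by the naming rule the change from 16 h to 96 h differed between the Lamin B1 and the parental line (edgeR interaction, adjusted p under 0.05). List members outside that rule whose change also differed are given with their lists and are left out here. Without Lamin B1 96 h replicate 2 the difference passed for 15 of them, and 9 passed in every alternative that tested them. The values that follow are differences of log2 changes, Lamin B1 minus parental. Genes of the lamina's partners, caveolae, actin and matrix were TOR1AIP2 (-0.65), SYNE2 (0.98), CAVIN1 (-1.90), FLNA (-1.18), THBS1 (-1.16), PLAUR (-0.88) and KRT80 (-0.88). YAP targets were CCN1 (-1.52), ANKRD1 (-1.12), LATS2 (-0.86) and PTPN14 (-0.79). Amino acid and redox stress genes were SLC7A5 (-1.37), CHAC1 (-0.72), SESN2 (-1.06), SLC7A11 (-0.88), SRXN1 (-2.11), TXNRD1 (-0.85) and NQO1 (-0.82), and chaperones CALR (-0.85), HSP90B1 (-0.78), PDIA4 (-0.89), PDIA3 (-0.83) and HSPH1 (-0.61). Immediate early genes, ERK feedback, cytokines and the clock gave ATF3 (-0.85), CSRNP1 (-1.26), IER3 (-1.29), FOSL1 (-0.85), PPP1R15A (-1.18), DUSP6 (-0.82), CCND1 (-0.77), EPHA2 (-0.89), CXCL5 (-0.93), IL18 (-0.84), LIF (-0.85) and NR1D1 (-0.94). Genes of p53, mitosis and hypoxia gave GDF15 (-1.22), AEN (-0.79), PLK1 (-0.62), NDRG1 (1.87), PDK1 (0.86) and CA9 (4.65). Secretory and other epithelial genes gave TFF3 (2.51), S100P (0.92), DHRS3 (1.80), PRSS1 (3.47) and RASSF9 (-1.03), noncoding RNAs NEAT1 (1.23) and KCNQ1OT1 (1.18), and low genes RPL36AP41 (3.94), PDF (-1.91) and TPGS1 (-1.90). The fitted values of CCR9 (6.09) and PPIAP71 (7.44), which have no count at 16 h in the Lamin B1 line, depend on the prior count and are no bound on a fold. FOSL1 and PPP1R15A are in this set without a call in the Lamin B1 line alone.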

How the results depend on the processing

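Calls in the Lamin B1 line between 16 h and 96 h numbered 4379, and 6807 with voom, 6760 without libraries under 5000000 counts and 2234 when protein-coding genes of at least 10 CPM alone were fitted, which is fewer genes tested (1165 higher and 1069 lower, where the full fit has 475 and 2155 of the same 9394 genes, with 1544 calls shared in direction). Leaving out 1 replicate gave 2417 to 4207, with 2417 without Lamin B1 96 h replicate 2. The other alternatives stayed within 1.5 times, including 3028 with the replicate block. In this fit with the replicate number as a block, the parental count was 170, the difference between the 2 lines 227, that from the Lamin A/C line 91 and that from the Lamin B2 line 0 (edgeR, with 950 at an unadjusted p under 0.05, and 155 calls by DESeq2 without the block). The labels do not say whether the numbers pair the wells. Same-numbered 16 h and 96 h libraries of the Lamin B1 line correlated at -0.55, -0.03, -0.17 and -0.31 in their deviations from the group means. Not every library correlated best with its own number. The same correlations were 0.29, 0.12, 0.30 and 0.08 in the Lamin A/C line and 0.37, -0.32, 0.17 and -0.08 in the parental line.

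The parental line had 57 calls, then 95 with no filter, 112 with DESeq2, 567 with voom, 177 with trends in GC and length taken out, 171 with shallow libraries left out, 178 with the compared groups only and 33 with no mitochondrial genes. Leaving out 1 replicate gave 30 to 52: 31 without parental 16 h replicate 1, 30 without parental 16 h replicate 2, 36 without parental 16 h replicate 4, 31 without parental 96 h replicate 3 and 35 without parental 96 h replicate 4. The difference from the parental line had 246 calls, then 497 with DESeq2, 1461 with voom, 981 with trends in GC and length taken out, 1946 with shallow libraries left out and 1090 with the compared groups only. Leaving out 1 replicate gave 51 to 404: 156 without parental 16 h replicate 2, 120 without parental 16 h replicate 3, 119 without parental 16 h replicate 4, 114 without parental 96 h replicate 2, 136 without Lamin B1 16 h replicate 1, 149 without Lamin B1 16 h replicate 2, 404 without Lamin B1 16 h replicate 4 and 51 without Lamin B1 96 h replicate 2. The difference from the Lamin A/C line had 36 calls, then 79 with no filter, 86 with DESeq2, 279 with voom, 188 with trends in GC and length taken out, 212 with shallow libraries left out and 206 with the compared groups only. Leaving out 1 replicate gave 13 to 32: 19 without Lamin A/C 16 h replicate 1, 20 without Lamin A/C 16 h replicate 2, 23 without Lamin A/C 16 h replicate 3, 22 without Lamin A/C 16 h replicate 4, 19 without Lamin A/C 96 h replicate 1, 23 without Lamin A/C 96 h replicate 4, 13 without Lamin B1 16 h replicate 2, 16 without Lamin B1 96 h replicate 2 and 16 without Lamin B1 96 h replicate 4. The difference from the Lamin B2 line had 31 calls, then 70 with no filter, 155 with DESeq2, 748 with voom, 186 with trends in GC and length taken out, 255 with shallow libraries left out, 18 with the compared groups only and 63 with protein-coding genes of at least 10 CPM only. Leaving out 1 replicate gave 9 to 301: 20 without Lamin B1 16 h replicate 1, 17 without Lamin B1 16 h replicate 2, 49 without Lamin B1 16 h replicate 4, 18 without Lamin B1 96 h replicate 1, 12 without Lamin B1 96 h replicate 2, 301 without Lamin B2 16 h replicate 1, 17 without Lamin B2 16 h replicate 4, 93 without Lamin B2 96 h replicate 1, 9 without Lamin B2 96 h replicate 2 and 9 without Lamin B2 96 h replicate 3. The cause of these shifts was not tested.

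Of 175 named genes 146 were called, 124 of them under all alternatives, and 22 were lost under at least 1. Of the 29 not called, 13 were gained in at least 1. Log2 changes turned from below 0 to above 0, or the reverse, for 11 genes, none of them called. With relative log expression scaling the changes were EGR4 0.075, DUSP1 0.0093, ZFP36L1 0.051, JUNB 0.089, KLF2 0.00099 and BHLHE41 0.0068. With library size alone the changes were EGR4 0.14, DUSP1 0.089, ZFP36L1 0.13, JUNB 0.17, KLF2 0.084, BHLHE41 0.078 and CSNK1E 0.060. With DESeq2 the changes were EGR4 0.10, DUSP1 0.016, ZFP36L1 0.051, JUNB 0.086 and BHLHE41 0.012. With voom the changes were JUNB 0.085 and KLF2 0.30. With trends in GC and length taken out the changes were EGR4 0.19, DUSP1 0.066, ZFP36L1 0.10, JUNB 0.25, KLF2 0.23, BHLHE41 0.052, PER1 0.062 and CSNK1E 0.13. With the compared groups only the change of JUNB was 0.034. With the replicate block the changes were EGR4 0.23, JUNB 0.021, KLF2 0.053 and BHLHE41 0.061. With protein-coding genes of at least 10 CPM only the changes were DUSP1 0.074, ZFP36L1 0.11, JUNB 0.15 and CSNK1E 0.042. Leaving out 1 replicate gave ranges that span 0: NR4A3 -0.021 to 0.14, JUNB -0.12 to 0.12, BMAL1 -0.042 to 0.16, KLF2 -0.34 to 0.30, EGR4 -0.34 to 0.31, PER3 -0.12 to 0.18, BHLHE41 -0.31 to 0.17, ZFP36L1 -0.10 to 0.031 and DUSP1 -0.21 to 0.039. Depth limits the genes under 1 CPM, for which a library holds few reads.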
